A study of Mus musculus with 17 samples.

Results

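The ISG15 conjugation system was described here by 6 genes, Isg15, Uba7, Ube2l6, Herc6, Trim25 and Usp18, out of 31091 genes counted. The members were selected on earlier results of these data, in which Isg15 departed from other interferon-stimulated genes in cDC2s. The cDC2 levels are therefore given as a description without a test. Tests of the members are limited to cDC1s and, for the members other than Isg15, to cDC1s against cDC2s with WT medium. Lists other than that of the interferon-stimulated genes were also tested between the cell types with WT medium. All 6 members were present in the count table and passed the filter on low counts in every fit.

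Interferon-stimulated gene 15 is a small ubiquitin-like protein that is attached to other proteins, a modification called ISGylation. Uba7 is its activating (E1) enzyme, Ube2l6 its conjugating (E2) enzyme, Herc6 the main mouse ligase (E3), Trim25 a further ligase that also ubiquitinates the RNA sensor RIG-I, and Usp18 the protease that removes ISG15 from its targets. Usp18 also binds the interferon receptor chain IFNAR2 and dampens signaling there. Type I interferon induces the members through ISGF3, a transcription factor complex that binds interferon-stimulated response elements (ISRE), and free ISG15 can leave the cell and act as a cytokine.

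The mRNA was sequenced from splenic conventional dendritic cells, cDC1s and cDC2s, after 6 h with 1 of 3 media. WT medium came from live TC-1 cells (a mouse lung epithelial tumor line). BimS debris came from TC-1-iBimS cells that die by apoptosis, and RIPK3 debris from TC-1-iRIPK3 cells that die by necroptosis. All 3 cell lines had received cumate, which switches on the death gene in both engineered lines. Those lines were grown from single sorted cells, so each mode of death rests on clonal cells. The cDCs came from 8-week-old female C57BL/6JRj mice bearing B16-FLT3L tumors, whose FLT3 ligand expands cDCs, and the spleens of more than 1 mouse were pooled. CD11c+ cells were cultured with the medium and GM-CSF, and cDC1s (XCR1+CD8α+) and cDC2s (SIRPα+CD11b+) were sorted afterwards. There were 17 samples, 3 in each of the 6 groups except for 2 samples of cDC2s with RIPK3 debris.

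A library held between 16095159 and 21645289 counts. The unit of level is CPM, the reads of a gene per 1e+06 reads of its library after TMM scaling. The sorts held their own markers: 8 cDC1 markers summed to between 1409 and 1736 CPM in cDC1s and 98.97 to 131.9 in cDC2s, and 6 cDC2 markers to between 284.9 and 373.1 CPM in cDC2s and 2.108 to 4.021 in cDC1s. Markers of B cells and of T and NK cells summed to at most 1.524 CPM in any sample. The 6 plasmacytoid DC markers summed to 13.09 to 20.62 CPM in cDC1s and 2.522 to 4.073 in cDC2s, with Siglech at 12 counts or fewer in every sample. In bulk samples, fewer cells of a type and less RNA per cell cannot be told apart.

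The member genes lie on 5 chromosomes of GRCm39. Isg15 (ENSMUSG00000035692) lies on the minus strand at chr4:156283883-156285303, in 2 exons and a transcript of 782 bases. Usp18 (ENSMUSG00000030107) lies at chr6:121222848-121247877 and Herc6 (ENSMUSG00000029798) at chr6:57557932-57642597. Uba7 (ENSMUSG00000032596) lies at chr9:107852704-107861262, Ube2l6 (ENSMUSG00000027078) at chr2:84628630-84640783 and Trim25 (ENSMUSG00000000275) at chr11:88890202-88911122, and these 5 genes are on the plus strand. The processed pseudogene Gm9706 is 95.2% identical to Isg15 over 482 bases and had at most 1 count in a sample. Gm20661, on the same strand as Uba7 and 98.6% identical to it over 208 bases, had at most 3. Gm45193, identical to Herc6 over 688 bases, was not analysed here, and the Ube2l6 transcript shares a stretch of at least 100 bases, at 85% identity or more, with transcripts of 45 other genes, so that the counts of these members carry that uncertainty. Of those 45 genes H2-Eb1 (92.7% over 179 bases) reached 166648 counts in a sample, Smchd1 14219 and Arfgef1 5099, against 143 to 447 for Ube2l6. Others held few, such as Prss35 with at most 1 count. The part of such reads in the Ube2l6 counts was not tested. The strand setting of the counting was not stated. Annotated genes that overlap a member and are in the count table held at most 20 counts in a sample (Inka1, opposite to Uba7), while the overlapping lncRNA Gm46878, opposite to Isg15, was not analysed here.

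The upstream sequence of Isg15 is shown because Isg15 is the member singled out in cDC2s and because it holds matches to AANNGAAA, a core pattern of interferon-stimulated response elements. The sequence was taken from RefSeq promoter windows of build GRCm38.p6 and placed by an exact, unique match on GRCm39 at chr4:156285304-156285525, minus strand, the 222 bases that end at the annotated transcript start. Capitals mark the 4 matches to AANNGAAA, 3 of them overlapping at bases -76 to -57 before the RefSeq start and 1 at -128 to -121 on the opposite strand.
Isg15: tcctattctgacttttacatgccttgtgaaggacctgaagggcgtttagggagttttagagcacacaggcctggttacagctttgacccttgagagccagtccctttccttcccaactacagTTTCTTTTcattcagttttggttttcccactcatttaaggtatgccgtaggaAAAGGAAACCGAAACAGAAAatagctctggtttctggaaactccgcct

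Windows of 250 bases before the RefSeq start were found for 5 members, Isg15, Uba7, Ube2l6, Herc6 and Trim25. The RefSeq starts lie downstream of the gene starts given above, so that each window reaches into the annotated gene and that of Ube2l6 lies wholly within it. On either strand AANNGAAA occurred in the windows of 2 of these 5 members, Isg15 and Uba7, in 21.3% of 32851 windows of all genes and in 63.6% of 33 windows of listed interferon-stimulated genes. For Uba7 the match lies at bases -27 to -20 before the RefSeq start, on the opposite strand, and is capitalised in the 30 bases around it, chr9:107852728-107852757 on the plus strand, downstream of the gene start given above.
Uba7: actcagtctagTTTCACTTttggtttcctg

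The GAS pattern TTCNNNGAA, an interferon-gamma response motif, occurred in 0 of the 5 and in 7.02% of all windows. A match describes the letters in the window and shows no binding.

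With WT medium, Isg15 had the largest log2 difference between the cell types among the 6 members. Isg15 had 25.6, 22.5 and 26.5 CPM in the 3 cDC1 samples and 62.1, 60.5 and 85.1 CPM in the 3 cDC2 samples. The groups did not overlap, and Isg15 was lower in cDC1s by 1.48 on the log2 scale (log2 fold change -1.48, SE 0.17), given without a test because the cDC2 samples with WT medium are part of the contrast that singled out Isg15. The tests of the other members use those samples too and are not independent of that contrast. Herc6 was also lower in cDC1s (22.4 ± 2.14 against 36.6 ± 6.31 CPM, SD, n = 3 each), with a log2 fold change of -0.71 (SE 0.20, edgeR adjusted p = 0.00791). Trim25 was higher in cDC1s (552 ± 5.98 against 486 ± 32.7 CPM, SD, n = 3 each), with a log2 fold change of 0.18 (edgeR adjusted p = 0.0164), a call that ended without replicate 2 (adjusted p = 0.0505) or 3 (adjusted p = 0.0582) of cDC2s with WT medium. Uba7 was lower by -0.27 (edgeR adjusted p = 0.0314), although the groups overlapped. That call ended with DESeq2 (adjusted p = 0.0566), with limma on log2 counts (adjusted p = 0.565) and when replicate 1 (adjusted p = 0.138) or 2 (adjusted p = 0.0913) of cDC1s or replicate 1 (adjusted p = 0.169) or 2 (adjusted p = 0.0945) of cDC2s was left out. For the conjugating enzyme Ube2l6 the difference was 0.13 (95% CI -0.10 to 0.36, edgeR adjusted p = 0.367, and from 0.063 without replicate 3 of cDC1s to 0.28 without replicate 3 of cDC2s) and for the protease Usp18 0.15 (95% CI -0.29 to 0.59, edgeR adjusted p = 0.606). Of the 5 members other than Isg15, 2 were called lower in cDC1s and 1 higher, beside 23.7% of 19082 genes lower and 22.5% higher. Without replicate 2 of cDC2s with WT medium, 1 of the 5 was called, Herc6.

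Levels of different members were compared per kb of transcript. In cDC1s with WT medium the ligase Trim25 led with 98.7 ± 1.07 CPM per kb, followed by Isg15 with 31.8 ± 2.64, Usp18 with 15.4 ± 0.54, Ube2l6 with 11.6 ± 1.07, Uba7 with 6.78 ± 0.53 and Herc6 with 3.86 ± 0.37 (SD, n = 3). In cDC2s with WT medium Isg15 had 88.5 ± 17.6 CPM per kb and Trim25 86.9 ± 5.85, with overlapping samples. In cDC2s with RIPK3 debris Isg15 had 89.8 and 74.8 CPM per kb and Trim25 67.2 and 62.0, so that both Isg15 samples were above both of Trim25.

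**Figure D1:**
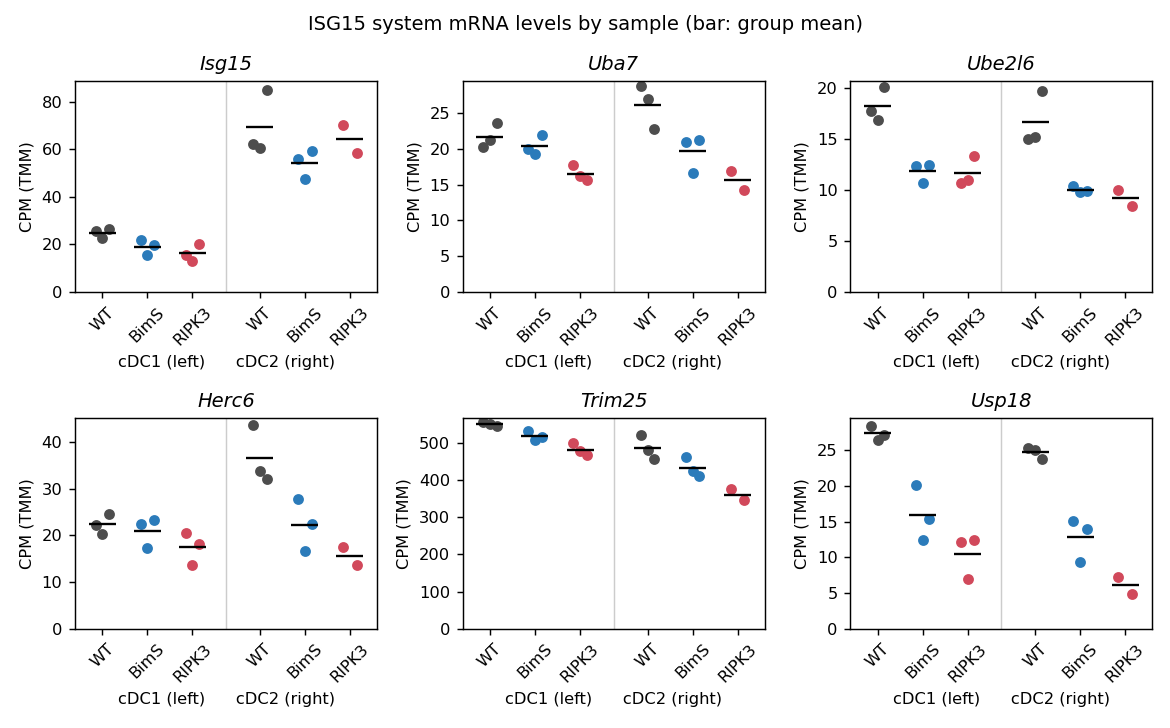
TMM-scaled CPM (vertical axis, from 0) of the 6 members in each sample (points), with the group mean as a bar, by cell type and medium (n = 3, or 2 for cDC2s with RIPK3 debris). In cDC2s the RIPK3 points of Isg15, at 70.2 and 58.5 CPM, overlap the range of the WT points, the lower one lying below all 3, whereas those of Usp18, at 7.31 and 4.92 CPM, lie below all WT points.

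In cDC1s, RIPK3 debris was compared with WT medium to see how the members respond to necroptotic cells. Of the 6 members, 5 fell and Herc6 did not pass the test, beside 8.19% of 19513 genes that were lower. The median log2 fold change of the members was -0.51, that of 40 interferon-stimulated genes (none of them a member) was -0.96 and that of all genes tested was -0.006.

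The substrate Isg15 had 15.3, 13.0 and 20.2 CPM with RIPK3 debris, below the 22.5 to 26.5 CPM with WT medium. The groups did not overlap and the log2 fold change was -0.63 (SE 0.17, edgeR adjusted p = 0.0400). This call was close to the threshold: it ended without replicate 1 (adjusted p = 0.136), 2 (adjusted p = 0.0588) or 3 (adjusted p = 0.151) of WT, replicate 3 of BimS (adjusted p = 0.0828) or replicate 1 of RIPK3 (adjusted p = 0.167). The log2 fold change stayed between -0.82 and -0.50 when any 1 of the 9 libraries was left out.

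The activating enzyme Uba7 had 17.7, 16.3 and 15.7 CPM with RIPK3 debris against 20.3, 21.3 and 23.6 CPM with WT medium, and fell by 0.39 on the log2 scale (SE 0.086, edgeR adjusted p = 0.000812). The conjugating enzyme Ube2l6 had 10.7, 10.9 and 13.4 CPM against 17.7, 16.8 and 20.1 CPM and fell by 0.65 on the log2 scale (SE 0.10, edgeR adjusted p = 6.16e-06). In both enzymes every RIPK3 sample was below every WT sample.

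The ligase Herc6 had 20.6, 13.6 and 18.2 CPM with RIPK3 debris and 22.2, 20.3 and 24.6 CPM with WT medium, and the groups overlapped. Its log2 fold change was -0.36 (95% CI -0.71 to -0.013, edgeR adjusted p = 0.172). It ran from -0.50 without replicate 1 of RIPK3 to -0.21 without replicate 2 of RIPK3, and became a call without replicate 1 of RIPK3 (adjusted p = 0.0242) or replicate 2 of BimS (adjusted p = 0.0361). With the replicate number as a block it became a call (log2 fold change -0.36, edgeR adjusted p = 8.67e-05), so that 6 of 6 members were lower, beside 10.7% of all genes in that blocked fit. The ligase Trim25, the most abundant member, had 499, 479 and 467 CPM against 558, 552 and 546 CPM and fell by 0.20 on the log2 scale (SE 0.045, edgeR adjusted p = 0.00136).

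The protease Usp18 had the largest log2 fold change of the members. Its levels were 12.1, 6.98 and 12.5 CPM with RIPK3 debris and 28.4, 26.5 and 27.2 CPM with WT medium, from 139 to 605 counts a library. The groups were far apart relative to their spread, with a log2 fold change of -1.39 (SE 0.24, edgeR adjusted p = 0.00784).

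BimS debris was compared with WT medium in the same way, and Ube2l6 was the 1 member of 6 that fell, beside 5.89% of genes that were lower. Ube2l6 had 12.3, 10.7 and 12.5 CPM with BimS debris, all below WT, and a log2 fold change of -0.63 (SE 0.10, edgeR adjusted p = 1.20e-05). Usp18 had 20.1, 12.4 and 15.4 CPM, also all below WT, but a log2 fold change of -0.78 with an edgeR adjusted p of 0.0774 (95% CI -1.33 to -0.24). Isg15 had 22.0, 15.3 and 19.5 CPM, again below the 3 WT samples, with a log2 fold change of -0.40 (95% CI -0.78 to -0.008, edgeR adjusted p = 0.207). Usp18 became a call without replicate 1 of BimS (adjusted p = 0.0259) or 2 of RIPK3 (adjusted p = 0.000168), and Isg15 without replicate 3 of RIPK3 (adjusted p = 0.00576). With the replicate number as a block, Usp18 (edgeR adjusted p = 0.000225) and Isg15 (edgeR adjusted p = 2.82e-05) were called lower as well, giving 3 of 6 members, beside 8.51% of all genes in that fit. For Uba7 and Herc6 the log2 fold changes were both -0.093 (95% CI -0.26 to 0.077 and -0.43 to 0.25), and for Trim25 it was -0.090 (95% CI -0.18 to 0.001). When 1 library was left out, Uba7 ran from -0.15 to -0.027 and Herc6 from -0.17 to 0.023. The median of the members was -0.25, against -0.53 for the interferon-stimulated genes and 0.002 for all genes.

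RIPK3 and BimS debris were compared directly to separate the modes of death. Uba7 was the 1 member of 6 that was lower with RIPK3 debris, beside 2.21% of genes, with a log2 fold change of -0.30 (SE 0.087, edgeR adjusted p = 0.0390) and no overlap of the groups. That call ended with DESeq2 (adjusted p = 0.0592), with limma on log2 counts (adjusted p = 0.0783) and without replicate 1 (adjusted p = 0.0618) or 3 (adjusted p = 0.253) of BimS or 2 (adjusted p = 0.125) or 3 (adjusted p = 0.102) of RIPK3. The difference for Usp18 was -0.60 (95% CI -1.21 to 0.007, edgeR adjusted p = 0.329), for Herc6 -0.27 (95% CI -0.62 to 0.084), for Isg15 -0.23 (95% CI -0.64 to 0.18), for Trim25 -0.11 (95% CI -0.20 to -0.015) and for Ube2l6 -0.021 (95% CI -0.24 to 0.20). These 5 differences were called in no fit that left out 1 library, but their size depended on it. Without replicate 2 of RIPK3 they were -0.37 for Usp18, -0.11 for Herc6 and -0.095 for Isg15, while the lowest values were -0.76 for Usp18 without replicate 2 of BimS, -0.41 for Herc6 without replicate 1 of RIPK3 and -0.42 for Isg15 without replicate 3 of RIPK3. With the block Usp18 (edgeR adjusted p = 0.0144) and Herc6 (edgeR adjusted p = 0.0145) joined Uba7, giving 3 of 6 members, beside 4.79% of all genes. Limma on log2 counts called Usp18 lower (-0.70, limma adjusted p = 2.58e-05), where the median of all genes was -0.088.

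**Figure D2:**
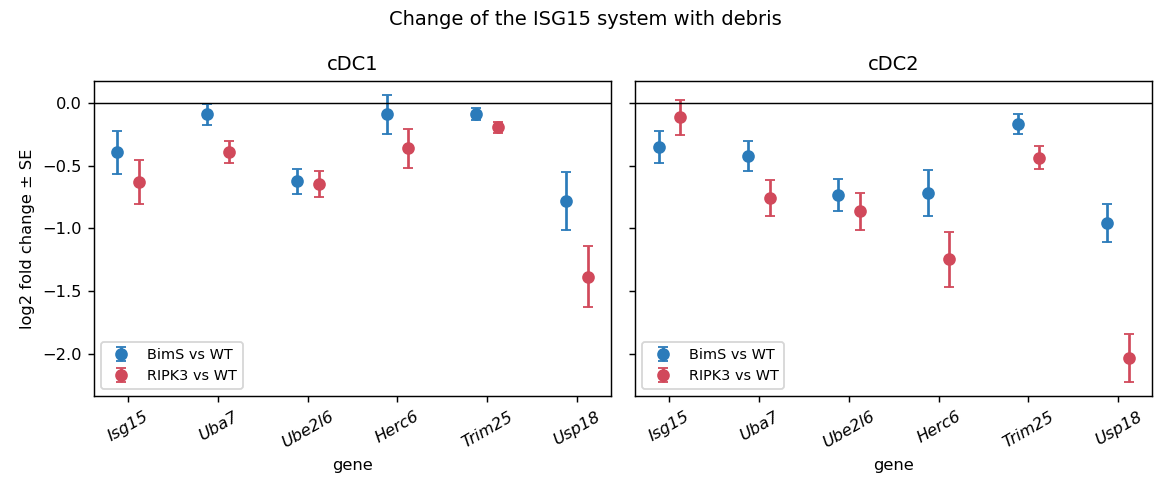
Log2 fold change (vertical axis) of each member with BimS debris (blue) and RIPK3 debris (red) against WT medium in cDC1s (left) and cDC2s (right), with bars of ± 1 SE from the edgeR fits. Usp18 lies lowest with RIPK3 debris in both cell types, at -1.39 and -2.03, and within cDC2s, among the values with RIPK3 debris, Isg15 lies nearest to 0, at -0.12.

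In cDC2s the Isg15 levels with RIPK3 debris and WT medium overlapped, while the other 5 members were lower in both RIPK3 samples than in every WT sample. This contrast chose the members, so its values are given as a description without a test. Isg15 had 70.2 and 58.5 CPM with RIPK3 debris and 62.1, 60.5 and 85.1 CPM with WT medium, and the groups overlapped. The log2 fold change was -0.12 (SE 0.14, 95% CI -0.42 to 0.19). Replicate 3 with WT medium was the highest of all samples, and without it the log2 fold change was 0.056. Without replicate 2 of RIPK3 it was 0.017 and with the replicate number as a block it was 0.007, so its sign was not fixed.

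Usp18 lay at the other end. It had 7.31 and 4.92 CPM with RIPK3 debris, from 113 and 84 counts, against 25.4, 25.0 and 23.8 CPM with WT medium. The groups were well apart, and the log2 fold change was -2.03 (SE 0.19).

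Herc6 had 17.5 and 13.6 CPM with RIPK3 debris against 43.8, 33.8 and 32.1 CPM with WT medium, a log2 fold change of -1.25 (SE 0.22). Ube2l6 had 10.0 and 8.38 CPM against 15.0, 15.2 and 19.7 CPM (log2 fold change -0.87, SE 0.15), and Uba7 16.9 and 14.3 CPM against 28.8, 27.0 and 22.8 CPM (log2 fold change -0.76, SE 0.14). The ligase and both enzymes thus had non-overlapping groups. Trim25 had 376 and 347 CPM against 521, 480 and 457 CPM, also without overlap, and a log2 fold change of -0.44 (SE 0.092). In all 5 of 6 members were lower without overlap, and 16.4% of 19239 genes were too; nothing is read from that share, since the contrast was used to choose the members.

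With BimS debris the 6 members were all lower on average than with WT medium, and 5 of 6 did not overlap, beside 11.7% of genes. Isg15 had 56.1, 47.4 and 59.3 CPM, each below all WT samples, with a log2 fold change of -0.35 (SE 0.13), which was -0.18 without replicate 3 of WT. Usp18 had 15.0, 9.36 and 14.0 CPM (log2 fold change -0.96, SE 0.15), Ube2l6 10.3, 9.76 and 9.90 CPM (log2 fold change -0.74, SE 0.13) and Herc6 27.9, 16.6 and 22.6 CPM (log2 fold change -0.72, SE 0.19). Trim25 was the member whose BimS and WT samples overlapped.

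Between the modes of death, the members did not all point the same way in cDC2s. Isg15 exceeded its BimS level with RIPK3 debris in both same-numbered pairs of samples, although the groups overlapped (log2 fold change 0.24, SE 0.14, 95% CI -0.061 to 0.54, and between 0.11 and 0.36 when 1 library was left out). The other 5 members were lower in both pairs. Usp18 (log2 fold change -1.07, SE 0.20) and Trim25 (-0.27, SE 0.091) were the 2 of 6 members without overlap, beside 12.5% of genes that were lower without overlap.

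Over the 6 groups, the 3 cDC2 groups held the highest Isg15 levels and the 3 cDC1 groups the lowest, with no overlap between the cell types. Isg15 means were 69.2 ± 13.8, 64.4 ± 8.31 and 54.3 ± 6.16 CPM (SD) in cDC2s with WT medium, RIPK3 debris and BimS debris, and neighbours in that order overlapped. They were 24.9 ± 2.06, 19.0 ± 3.37 and 16.2 ± 3.67 CPM (SD) in cDC1s with WT medium, BimS debris and RIPK3 debris, and the latter pair overlapped. Usp18 was ordered by medium instead: 27.4 ± 0.96 and 24.7 ± 0.82 CPM in cDC1s and cDC2s with WT medium, then 15.9 ± 3.87 and 12.8 ± 3.03 with BimS debris, and 10.5 ± 3.07 and 6.12 ± 1.69 with RIPK3 debris (SD). Both WT groups of Usp18 stood apart from each other and from the rest, while neighbours among the debris groups overlapped.

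The response of cDC1s to RIPK3 debris minus that of cDC2s was -0.52 on the log2 scale for Isg15 (SE 0.26) in a fit of all 17 samples. It was 0.88 for Herc6 (SE 0.31), 0.64 for Usp18 (SE 0.36), 0.36 for Uba7 (SE 0.16), 0.23 for Trim25 (SE 0.094) and 0.21 for Ube2l6 (SE 0.18). Isg15 was thus the member whose log2 fold change was lower in cDC1s, and the other 5 had lower values in cDC2s. These differences hold the cDC2 contrast that chose the members and were not tested. With BimS debris the difference for Isg15 was -0.042 (SE 0.25).

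Among the 40 listed interferon-stimulated genes and the 6 members, the rank of Isg15 differed between the cell types. Counted from the smallest fall with RIPK3 debris, Isg15 was number 17 of 46 in cDC1s and number 2 in cDC2s. The cDC2 rank comes from the contrast that singled out Isg15 and is a description. Usp18 was number 38 in cDC1s and 35 in cDC2s, and Trim25 number 6 and 5.

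In cDC1s with RIPK3 debris 30 of the 40 interferon-stimulated genes fell and 1 rose (8.19% of all genes were lower and 8.34% higher). By log2 fold change the largest falls were those of Ifit1bl1 (-2.73, edgeR adjusted p = 0.000895), at under 1 CPM, of Slfn5 (-1.99, edgeR adjusted p = 0.000100) and of the antiviral gene Ifi44 (-1.82, edgeR adjusted p = 0.00102). Oasl1, an oligoadenylate synthetase-like gene, was the 1 that rose (0.49, edgeR adjusted p = 0.0370). With BimS debris 20 fell and 1 rose (5.89% of all genes were lower and 7.31% higher), Oasl1 again (0.68, edgeR adjusted p = 0.0107), with Ifit1bl1 (-2.17), Ifi44 (-1.04) and the GTPase gene Ifi47 (-0.88) falling most. With RIPK3 against BimS debris 14 were lower and 0 higher (2.21% of all genes were lower), led by Ifit2 (-1.39), Slfn5 (-1.19) and Cmpk2 (-0.89).

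In cDC2s 38 of the 40 listed genes were lower without overlap with RIPK3 debris than with WT medium, beside 16.4% of all genes, in the contrast that chose the members. Their median log2 fold change was -1.51, against -0.81 for the members and -0.022 for all genes. The interferon-induced antiviral genes Ifit1 (-2.66), Ifit3 (-2.66) and Ifi44 (-2.58) had the largest log2 differences. Among the smallest were those of Ifi27l2a (-0.28, SE 0.44) and Oasl1 (-0.31, SE 0.13). Stat2, a subunit of ISGF3, had a log2 fold change of -0.92 (SE 0.10).

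**Figure D3:**
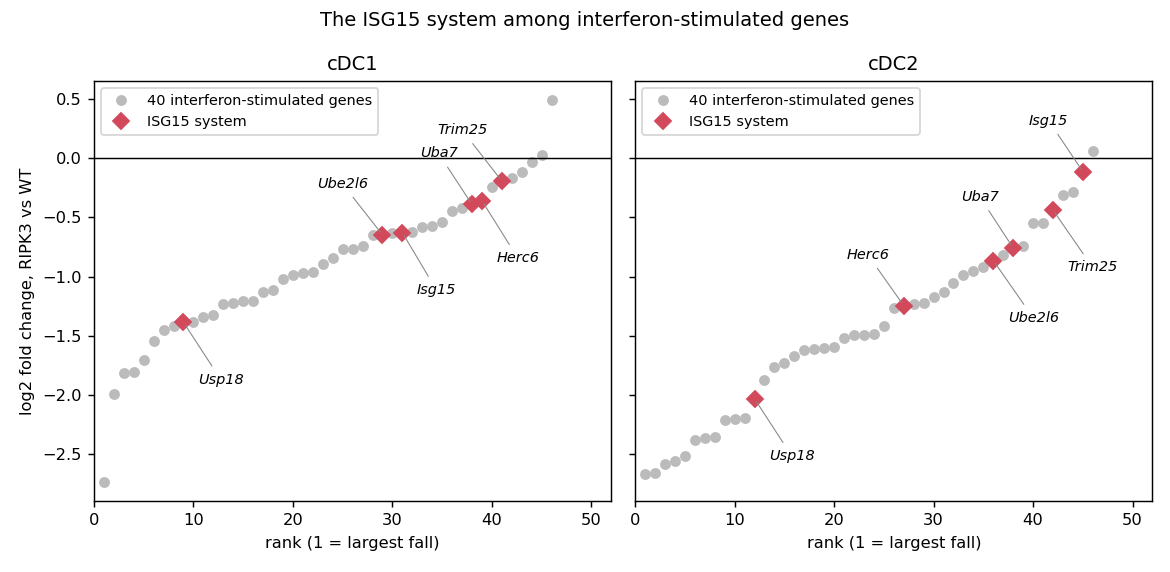
Log2 fold change with RIPK3 debris against WT medium (vertical axis) of the 6 members (red diamonds) and 40 interferon-stimulated genes (grey), ranked from the largest fall (horizontal axis), in cDC1s (left) and cDC2s (right). Isg15 lies at -0.63 within the list in cDC1s and at -0.12 next to its upper end in cDC2s.

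The distance of Isg15 from the mean of the 40 genes was taken in each sample on the log2 CPM scale. In cDC2s such a distance is what singled out Isg15, so its values there are a description. In cDC2s it was 0.56, 0.58 and 0.96 with WT medium, 1.10, 1.14 and 1.26 with BimS debris, and 2.05 and 2.16 with RIPK3 debris. The 3 groups did not overlap and the distance was widest with RIPK3 debris, which the choice of Isg15 favors. In cDC1s it was 0.40, 0.35 and 0.34 with WT medium, 0.57, 0.42 and 0.35 with BimS debris, and 0.55, 0.59 and 0.77 with RIPK3 debris, so that only the RIPK3 samples were all above the WT samples.

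The ratio of Isg15 counts to Usp18 counts, the modifier over its protease, followed the same order. In cDC2s there were 2.45, 2.42 and 3.58 Isg15 counts per Usp18 count with WT medium, 3.73, 5.07 and 4.23 with BimS debris, and 9.61 and 11.9 with RIPK3 debris. In cDC1s there were 0.90, 0.85 and 0.97 with WT medium, 1.10, 1.24 and 1.27 with BimS debris, and 1.27, 1.86 and 1.62 with RIPK3 debris. The cDC2 groups did not overlap, and in cDC1s both debris groups were above WT. The cDC2 ratios hold the Isg15 values that chose the members and are a description.

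**Figure D4:**
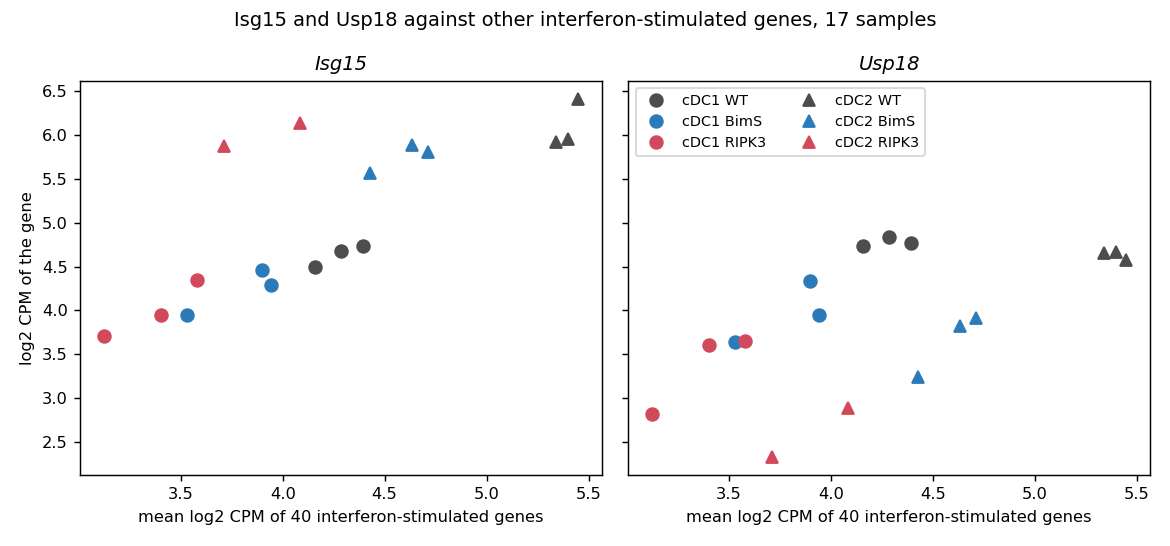
Log2 CPM of Isg15 (left) and Usp18 (right) against the mean log2 CPM of 40 interferon-stimulated genes (horizontal axis) in each of 17 samples; circles are cDC1s, triangles cDC2s, and colors the media. In cDC2s Isg15 stays between 5.57 and 6.41 while the list mean spans 3.71 to 5.45, and Usp18 spans 2.33 to 4.67.

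The genes most like Isg15 and Usp18 over the 17 samples, by Pearson's r of log2 CPM less the cell type mean among 7784 genes averaging at least 3 log2 CPM, were of different kinds. The samples share their media and their sorts, so the correlations are descriptions. These samples include the cDC2 samples in which Isg15 was singled out for departing from interferon-stimulated genes. A low r of Isg15 with such genes is thus partly built in by that choice. The genes most like Isg15 were Ilk (0.91), a kinase bound to integrins, Acadl (0.90), an enzyme of fatty acid oxidation, the sialyltransferase gene St6galnac6 (0.89), the DNA repair gene Xpa (0.88) and Mapk3 (0.88), which encodes ERK1. For Usp18 they were the interferon-induced genes Parp12 (0.98), Irgm1 (0.97), Slfn5 (0.97), Xaf1 (0.97) and Oas3 (0.96). Over 27 listed interferon-stimulated genes at that level the median r was 0.60 for Isg15 and 0.93 for Usp18, and between 0.83 and 0.88 for the other 4 members. Among the members Isg15 was most like Ube2l6 (0.75) and least like Trim25 (0.31), while the other 5 had r between 0.70 and 0.93 with each other.

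The 4 interferon ligand genes in the table, Ifnb1, Ifna1, Ifna2 and Ifnl3, had at most 4 counts in any sample, the highest being Ifnb1 in a sample of cDC1s with RIPK3 debris. In cDC1s Ifnb1 had 1 to 4 counts with RIPK3 debris and 0 to 1 count with WT medium. In CPM each RIPK3 sample was above each WT sample, and the difference did not pass the test (edgeR adjusted p = 0.153). The other comparisons of ligand genes that could be tested, of Ifnb1 and Ifna2 in cDC1s, did not pass it either, and in cDC2s no ligand passed the filter on low counts.

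Calls among other genes of the pathway went in both directions in cDC1s. Of 14 partners of ISG15, which include deconjugating proteases, the interferon receptor and the integrin LFA-1, 2 fell with RIPK3 debris and 3 rose. Of all genes 8.19% fell and 8.34% rose, and nothing is read from counts in so short a list. Stat2 fell by 0.63 on the log2 scale (edgeR adjusted p = 6.06e-07) and the integrin chain Itgal by 0.24 (edgeR adjusted p = 0.000421). Itgb2, the other chain of LFA-1, rose by 0.54 (edgeR adjusted p = 8.85e-11), the protease Usp14 by 0.45 (edgeR adjusted p = 7.74e-06) and the ligase Arih1 by 0.32 (edgeR adjusted p = 5.36e-06). With BimS debris 3 fell, Stat2 (-0.32), Itgal (-0.20) and the receptor chain Ifnar1 (-0.16), and 3 rose, Itgb2 (0.52), Usp14 (0.36) and Arih1 (0.20), beside 5.89% of all genes lower and 7.31% higher. Between RIPK3 and BimS debris Stat2 was lower (-0.31) and the receptor chain Ifnar2, which Usp18 binds, was higher (0.26, edgeR adjusted p = 0.0311, beside 1.94% of all genes higher).

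Of 10 genes whose proteins are known to be ISGylated, 5 fell with RIPK3 debris and 0 rose, beside 8.19% of all genes lower and 8.34% higher. The RNA sensor gene Rigi fell by 1.13 on the log2 scale (edgeR adjusted p = 1.68e-05), Eif2ak2, which encodes the kinase PKR, by 1.11 (edgeR adjusted p = 7.41e-14) and the antiviral GTPase gene Mx1 by 0.63 (edgeR adjusted p = 0.000161). With BimS debris 4 fell, led by Rigi (-0.76), Eif2ak2 (-0.75) and Mx1 (-0.34), and 1 rose, the replication clamp gene Pcna (0.25), beside 5.89% of all genes lower and 7.31% higher. With RIPK3 against BimS debris 2 were lower, Eif2ak2 (-0.36) and the RNA sensor gene Ifih1 (-0.34), beside 2.21% of all genes. Of these 10 genes 5 are themselves in the interferon-stimulated list, so the counts overlap.

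The 17 relatives in the ubiquitin system include activating enzymes and modifiers of the ubiquitin, SUMO and NEDD8 pathways. With RIPK3 debris 0 fell and 3 rose by the edgeR test, Uba3 (0.27), the ubiquitin gene Ubb (0.27) and Ube2l3 (0.24), the closest relative of Ube2l6. Of all genes 8.19% fell and 8.34% rose. With BimS debris 0 fell and 2 rose, Herc3 (0.42) and the ubiquitin-activating enzyme gene Uba1 (0.18), and Ubb was also called higher for RIPK3 against BimS debris (0.19). Shares over all genes were 5.89% lower and 7.31% higher with BimS debris, and 1.94% higher for RIPK3 against BimS debris. The median log2 fold change of the 17 relatives in cDC1s was 0.029 with RIPK3 debris and 0.041 with BimS debris.

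Between the cell types with WT medium these lists were mixed, beside 23.7% of all genes lower and 22.5% higher in cDC1s. Of the partners 5 were lower and 5 higher in cDC1s, with Itgal (3.19), Ifnar1 (0.90) and Itgb2 (0.68) the furthest up and the conjugating enzyme gene Ube2e2 (-1.94), Usp21 (-0.55) and Usp14 (-0.54) the furthest down. Of the ISGylated proteins' genes 5 were lower, led by Rigi (-3.20), Irf3 (-0.62) and Pcna (-0.39), and 2 higher, among them Eif2ak2 (0.52). Of the relatives 7 were lower, led by Sumo2 (-0.71), Herc3 (-0.59) and Uba1 (-0.46), and 2 higher, Herc1 (0.54) and Ufm1 (0.23). Of the 40 interferon-stimulated genes 30 had a log2 fold change below 0 and 10 above 0 (median -0.42), given without a test. The calls of the other lists use the cDC2 samples with WT medium. Those samples are also part of the contrast that singled out Isg15 against interferon-stimulated genes, and Rigi and Eif2ak2 are themselves in that list.

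The macrophage and monocyte marker Fcgr1 differed between the media in cDC1s. The sum of 6 such markers was 7.733 to 8.760 CPM with WT medium, 4.485 to 4.889 with BimS debris and 3.564 to 4.719 with RIPK3 debris. By the edgeR test 1 of the 5 markers tested fell with either debris, Fcgr1, an interferon-inducible Fc receptor gene (log2 fold change -1.03 and -2.12), which had 5.00 CPM on average with WT medium, 2.43 with BimS debris and 1.15 with RIPK3 debris. The other 4 did not pass. Of the 5 tested, 4 lay below 0 with either debris and 1 above, Ly6c2 (0.55 and 0.44). The median of the 5 was -0.81 with BimS debris and -0.31 with RIPK3 debris. The defining marker Mertk had at most 9 counts in a sample. In cDC2s the sums overlapped, at 16.42 to 24.61, 16.79 to 19.57 and 13.78 to 17.64 CPM. The part of these markers' cells in the members' changes was not tested.

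The 5 epithelial markers of the TC-1 debris that were in the table summed to 1.732 to 2.883 CPM in cDC1s, with overlapping groups, and in cDC2s to 30.33 to 39.01 CPM with WT medium, 21.29 to 35.08 with BimS debris and 17.98 to 25.14 with RIPK3 debris. Nearly all of the cDC2 sum was Cdh1 (32.7 ± 4.39, 25.6 ± 7.43 and 20.4 ± 5.19 CPM, SD), which was at 0.34 CPM or less on average in the cDC1 groups, so the sum in cDC2s is mainly the level of Cdh1. Krt8 had at most 3 counts in a sample and Krt7 none in cDC2s, and the part of TC-1 RNA in the results was not tested.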

How the data were processed

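The mRNA of 17 samples was counted per gene. The deposited counts were made by the authors with SeqPurge, STAR 2.7.10a on GRCm39 and gensum, and were not normalized. A second deposited table gives log2 values of counts scaled by library total, used here as an alternative only. Lines without a gene identifier (148, at most 0.0366% of counts) were left out. Symbols and coordinates came from GENCODE M39, which held 30854 of the 31091 identifiers.

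Members and gene lists were chosen with earlier results of these data known. The quasi-likelihood test of edgeR 4.0.16 (R 4.3.3, robust, TMM) was run on genes that had a count above 0 in 50% or more of a fit's samples, cDC1s and cDC2s separately, with Benjamini-Hochberg adjustment over all genes and a threshold of 0.05. All 17 samples entered the fit for cDC1s against cDC2s. Within a cell type 16 of 16 same-numbered pairs of samples from different media deviated together (r over 0.1, median 0.36), against 4 of 32 other pairs (median -0.19), so the replicate numbers, taken from the sample titles, were treated as pairs in a blocked fit. Across cell types 19 of 24 same-numbered pairs had r over 0.1 (median 0.21), against 5 of 48 others (median -0.10), and the fit of cDC1s against cDC2s was also run with the block. Sources do not say that replicates came from separate mice, and p-values measure the spread between these samples. No 2 libraries of the same group agreed within sampling noise. Other lists' genes were named by rule, up to 3 called genes with the largest log2 fold change in each direction, in cDC2s the 3 largest and 3 smallest falls of the interferon-stimulated list, and the 5 genes most like Isg15 and Usp18; Stat2 in cDC2s, Siglech, Mertk, Fcgr1, Ly6c2, Cdh1, Krt7, Krt8 and Ifnb1 were named after their values were seen. Some genes that the rule names are not reported here. Alternatives were DESeq2 1.42.0, its size factors, 2 other filters, limma 3.58.1 on log2(count + 1) and on the deposited values, the block, and leaving out each library.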

Additional observations from a re-analysis of the deposited data

How the results depend on the processing

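Of 408 log2 fold changes of members in the tested comparisons under all alternatives, Isg15 between the cell types left out, 362 kept their direction and their side of the threshold, 19 lost a call, 22 gained one and 5 changed sign, all of them uncalled: Herc6 with BimS debris in cDC1s without replicate 2 of BimS (0.023), and Ube2l6 for RIPK3 against BimS debris without BimS replicate 1 (0.011) or 3 (0.020) or RIPK3 replicate 1 (0.039) or 2 (0.024). For BimS against WT in cDC1s, where 1 member was called, DESeq2, no filter, limma on log2(count + 1) and the replicate block called 3, the expression filter of edgeR and limma on the deposited values called 2, and leaving out a library called 1 to 2. For RIPK3 against WT, where 5 were called, DESeq2, no filter, limma on log2(count + 1) and the replicate block called 6, with Herc6 added (adjusted p = 0.0383, 0.000447, 0.00124 and 8.67e-05), and leaving out a library called 4 to 6. For RIPK3 against BimS, where 1 was called, DESeq2 called 0, the replicate block 3, and leaving out a library 0 to 1. For cDC1s against cDC2s 3 of the 5 members other than Isg15 were called, DESeq2 and limma on log2(count + 1) called 2, and leaving out a library 1 to 3 (2 to 4 with Isg15 counted, which is given no test there). The causes were not tested. Apart from the calls given in the text, the block changed no other call of a member.

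Both limma alternatives left a shift over all genes. On log2(count + 1) the median log2 fold change of all genes was -0.12 for RIPK3 against WT in cDC1s, -0.17 in cDC2s and 0.16 for cDC1s against cDC2s, and with the deposited values -0.11 and -0.10 for BimS and RIPK3 against WT in cDC2s. Relative to that, the cDC2 values for RIPK3 of Uba7 (-0.93), Ube2l6 (-1.03) and Trim25 (-0.61) lay about as far below all genes as with TMM. Calls over all genes also moved, for causes that were not tested. Lower and higher, 1150 and 1426 became 742 and 768 on log2(count + 1) and 1806 and 1036 with deposited values for BimS against WT, 1598 and 1628 became 1981 and 768, and 2622 and 1188, for RIPK3 against WT, 432 and 378 became 345 and 58 on log2(count + 1), 935 and 795 with the block and 269 and 220 without BimS replicate 3 for RIPK3 against BimS, and 4518 and 4290 became 2763 and 4987 on log2(count + 1) for cDC1s against cDC2s. Depth limits the interferon ligands, which had at most 4 counts in a sample. Among the members Usp18 had the lowest count in a library, at 84 counts.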
